A study of Saccharomyces cerevisiae with 25 samples.

Results

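The later window of a phosphate starvation course in budding yeast, at 195, 210 and 225 min without phosphate, was compared with the early window of the same course at 30, 45 and 60 min. The genes described are all named genes with a value in at least 2 of the 3 libraries of each window: 5188 of the 6648 named genes in the deposited table, of which 4939 had a value in all 6 libraries. RNA of the yeast Saccharomyces cerevisiae was sequenced in 25 samples, 24 of them taken every 15 min after the cells had been washed and put into no phosphate medium and 1 taken before that, at 0 min, in high phosphate. Both windows, and the 0 min sample, come from a strain in the BY4741 background, a laboratory haploid of mating type a, with the genotype pho84pr-YFP and phm3 damp. The reporter is a yellow fluorescent protein gene under the PHO84 promoter. PHM3 is now called VTC4 and encodes the enzyme of the vacuole membrane that makes polyphosphate, and a DAmP allele disturbs the 3′ end of a transcript, which usually lowers its amount. No library without this allele was analysed here, so the windows differ in time without phosphate and share the allele. The labels do not say that the samples came from separate cultures. P-values therefore measure the spread between consecutive samples, which may be technical and also holds real change inside a window.

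Yeast cells sense the loss of phosphate through a cyclin-dependent kinase module whose inhibition lets the transcription factor Pho4 enter the nucleus and switch on the PHO regulon: phosphate transporters, secreted phosphatases and enzymes of polyphosphate metabolism. A lack of a nutrient can also lower the activity of the growth-promoting kinases PKA and TORC1. The general stress genes driven by Msn2 and Msn4 then come on, GATA factors switch on genes for the use of poor nitrogen sources, and genes for ribosomes and their assembly are turned down. A sudden change of medium by itself is known to set off a short-lived form of the same stress program.

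Values are log2 RPM, the log2 of reads per 1000000 reads, and differences are the later window minus the early window on that scale with their standard error (SE). The libraries held 0.837, 0.781 and 1.239 M recovered reads (M, 1000000) at 195, 210 and 225 min and 1.465, 1.811 and 2.971 M at 30, 45 and 60 min. A gene is listed only from 10 reads upwards, so the lowest level a library could show was between 8.07 and 12.8 RPM in the later window and between 3.37 and 6.82 RPM in the early one. Of the genes deleted in BY4741, LEU2, HIS3 and MET17 were listed in no library and URA3 was not listed or at most at 4.71 log2 RPM, while the a-factor gene MFA1 was between 9.38 and 11.19. Of the genes specific to mating type alpha, the alpha-factor gene MF(ALPHA)2 was listed in no library, MF(ALPHA)1 in 8 at 2.14 to 3.3 log2 RPM and the receptor gene STE3 in 23 at 4.26 to 5.32. ADA2, a subunit of the SAGA histone acetyltransferase, was between 7.83 and 8.92 log2 RPM in the libraries at 75, 120, 255, 345 and 360 min and between 10.46 and 12.02 in the other 20. The 6 libraries of the windows were all among those 20, at 11.02, 11.01 and 11.2 in the later window and 10.8, 10.91 and 10.96 in the early one.

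PHO genes, general stress genes and genes of carbohydrate stores were above their 0 min level in both windows and further above it in the later one. Nitrogen catabolite genes were raised mainly in the later window, and ribosomal protein genes were low mainly there. Heat shock chaperones had calls in both directions, with 10.3% of the list called higher and 13.8% lower. In the limma test 391 genes were called higher in the later window, which is 7.54% of the genes tested, and 178 were called lower, which is 3.43%. A call needs a Benjamini-Hochberg adjusted p under 0.05 and a log2 difference of at least 1 in size. At any size, 2354 genes had an adjusted p under 0.05, 1876 of them higher and 478 lower. Of the 178 genes called lower, 135 were in the lists of ribosomal proteins. The same contrast was drawn in the neighbouring libraries, 240, 255 and 270 min against 15, 75 and 90 min, which share no library with the windows: of 4973 genes tested there, 541 (10.9%) were called higher and 189 (3.8%) lower.

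RPM is a share of the reads, and the largest class of transcripts shrank between the windows. Ribosomal protein genes took 8.4, 7.3 and 6.4% of the reads in the later window and 29.3, 26.0 and 23.2% in the early one, against 34.3% at 0 min. The median difference of all 5188 genes was 0.30. The term "relative" marks a difference with this median taken off. With every library centred on its median, 191 genes were called higher and 266 lower, so the share of calls that were higher was 41.8%, against 68.7% on the deposited scale. All 191 were also called on the deposited scale, and all 178 lower calls of that scale were kept. A lower share of reads and less RNA per cell cannot be told apart in these data, and neither can a change in all cells and a change in some of them.

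**Figure D1:**
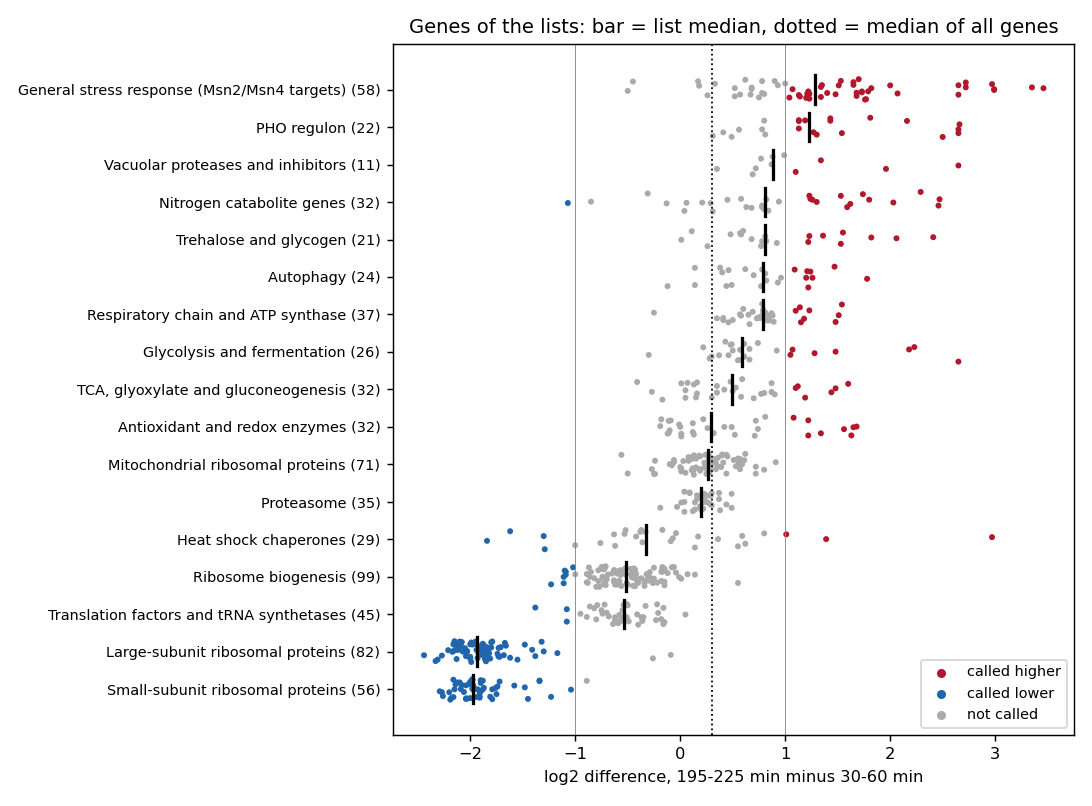
Log2 differences of single genes, later window (195 to 225 min) minus early window (30 to 60 min), in 17 gene lists; each point is a gene, coloured by its call, black bars are list medians and the dotted line is the median of all tested genes at 0.30. The general stress and PHO lists have medians of 1.28 and 1.23, and the ribosomal protein lists of -1.94 and -1.97.

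The plot of differences by gene list orders the groups by their medians and shows where each one spreads across the threshold. At the top, 38 of 58 stress genes and 15 of 22 PHO genes were called higher. At the bottom, nearly every ribosomal protein gene was called lower, while the mitochondrial ribosomal proteins and the proteasome, with medians of 0.26 and 0.2, had no gene called in either direction. Relative to all genes those medians are -0.05 and -0.1, so their sign depends on the scale.

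The PHO regulon was on in both windows and higher in the later one. Of its 22 tested genes, 15 were called higher and none lower, with a median difference of 1.23, or 0.93 relative to all genes. After centring, 10 were called higher. Over the 0 min library the list's median was 2.95 in the later window and 1.3 in the early one, and of the 21 genes with a value at 0 min 16 were at least 1 above it in both windows. The last gene of the list, CTF19, had no value in any library.

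PHM6, a gene of unknown function under Pho4, had 10.55, 10.64 and 10.57 log2 RPM in the later window and 7.89, 8.03 and 8.35 in the early one. The later libraries were close to each other and all far above the early ones, which climbed with time. The difference was 2.5 ± 0.11 (SE; limma adjusted p = 3.24e-14). PHM8, a phosphatase of lysophosphatidic acid and nucleotides, had 9.65, 9.74 and 9.78 in the later window and 6.74, 7.14 and 7.34 in the early one, a difference of 2.65 ± 0.13. PHO5, the main secreted acid phosphatase, showed the same picture at 12.23, 12.46 and 12.45 against 9.44, 9.67 and 10.07. However, its read numbers are fractional, as they are for its close copies PHO11 (1.43 ± 0.14) and PHO12 (1.19 ± 0.12). The split between the copies is therefore uncertain. GIT1, the permease for glycerophosphoinositol, which can feed phosphate into the cell, had 5.43, 6.03 and 5.67 in the later window and 3.14 and 2.95 at 45 and 60 min, and was not listed at 30 min.

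The 2 high-affinity phosphate transporters differed in how much they gained. PHO89, the sodium-dependent one, had 8.84, 9.02 and 9.1 log2 RPM in the later window and 6.19, 6.88 and 7.41 in the early one (difference 2.16 ± 0.19, limma adjusted p = 9.86e-10). PHO84, the proton-coupled one, at chrXIII:24037-25800 in build R64, had 10.31, 10.33 and 10.44 in the later window and 9.11, 9.41 and 9.17 in the early one (difference 1.13 ± 0.11). PHO84 had already been 2.3 above 0 min in the early window, and PHO89 1.3. The call for PHO84 was lost after centring, and its annotation overlaps the noncoding RNA YNCM0001W, whose reads cannot be told apart from it without the strand.

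Genes that release phosphate from other molecules were also higher in the later window. GDE1, the glycerophosphocholine phosphodiesterase, was higher by 1.81 ± 0.14, the vacuolar alkaline phosphatase PHO8 by 1.27 ± 0.14 and the glycerol phosphatase HOR2 by 1.3 ± 0.15. The call of PHO8 was lost after centring, and that of HOR2 in RPM without ribosomal protein reads. Both genes had fractional reads in some values, with whole read numbers in 92%. KCS1, a kinase that makes inositol pyrophosphates, had 7.55, 7.68 and 7.88 in the later window and 5.91, 6.44 and 6.48 in the early one, against 5.86 at 0 min, and was the one PHO gene with a rise of at least 1 over 0 min in the later window and under 0.5 in the early one. DDP1, which breaks down inositol pyrophosphates and polyphosphate, was higher by 1.13 ± 0.11, a call lost after centring.

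Polyphosphate genes gained less. VTC1, a small subunit of the polymerase complex, had 11.59, 11.62 and 11.73 log2 RPM in the later window and 10.36, 10.55 and 10.64 in the early one, a called difference of 1.13 ± 0.11 that centring ended. VTC4 itself, at chrX:411234-413399, had 7.73, 7.81 and 7.6 in the later window and 7.0, 6.95 and 6.84 in the early one, with 6.4 at 0 min. The windows did not overlap, and the difference of 0.78 ± 0.13 stayed under the threshold of 1. VTC2 (0.49 ± 0.13), VTC3 (0.56 ± 0.1) and the polyphosphatase PPN1 (0.8 ± 0.11) also had adjusted p-values under 0.05 and differences under 1.

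SPL2, which blocks low-affinity phosphate uptake, had most of its rise above 0 min by the early window. It had 9.65, 9.62 and 9.48 log2 RPM in the later window and 8.63, 8.74 and 8.94 in the early one, so 2.84 of its later rise of 3.66 over 0 min was present by 30 to 60 min. The kinase inhibitor PHO81 (difference 0.41 ± 0.11) and PHO86, which helps Pho84 leave the endoplasmic reticulum (0.31 ± 0.11), were likewise not called. Among 17 genes of phosphate signalling and low-affinity transport none was called higher, and the regulators PHO4 and PHO80 differed by 0.3 ± 0.2 and 0.37 ± 0.23. The single gene called lower there, the constitutive acid phosphatase PHO3 (-1.41 ± 0.18), had whole read numbers in 17% of its values. It lies beside its close copy PHO5.

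**Figure D2:**
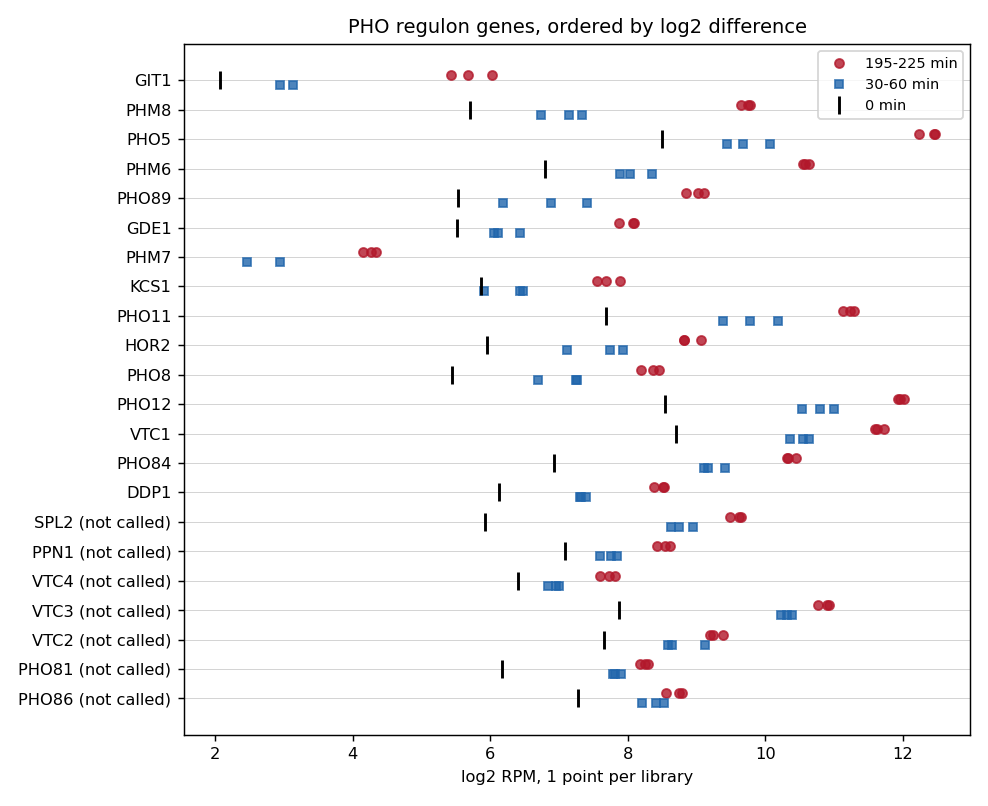
Log2 RPM of the 22 tested PHO regulon genes; red points are the 3 libraries at 195 to 225 min, blue squares the libraries at 30 to 60 min that list the gene and black bars the single 0 min library. Genes run from the largest difference (GIT1, 2.66) to the smallest (PHO86, 0.31).

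The plot of the PHO regulon by library shows each gene's 3 levels side by side. In the upper genes the early libraries lie nearer to the 0 min bar than to the later window. In SPL2, VTC3 and PHO81 they lie nearer to the later window.

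The core of the Pho4 site, CACGTG, which reads the same on both strands, was found in the 300 bases before the start codon of 10 of the 22 PHO genes (45.5%). It was found before 3.7% of all 5063 tested genes with such a stretch in build R64 and before 7.0% of the genes called higher. The PHO list was drawn from knowledge of Pho4 targets, so its share is a description only. No searched motif contains another, although sites can share bases. The stretches below are shown because they belong to genes with unlike gains between the windows: 2 that gained strongly (PHM6, PHO5), 1 that gained moderately (VTC1), and 2 under the threshold (SPL2, VTC4). They were read 5′ to 3′ on the coding strand from the RefSeq sequence of R64, with the core in capitals: PHM6 at chrIV:1022562-1022621 (minus strand), PHO5 at chrII:431172-431231 (minus), VTC1 at chrV:302622-302681 (plus), SPL2 at chrVIII:375215-375274 (minus) and VTC4 at chrX:413492-413551 (minus).
PHM6: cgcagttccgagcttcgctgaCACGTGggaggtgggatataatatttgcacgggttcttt
PHO5: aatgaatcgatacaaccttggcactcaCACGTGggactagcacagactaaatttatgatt
VTC1: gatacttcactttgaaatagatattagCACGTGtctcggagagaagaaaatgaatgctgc
SPL2: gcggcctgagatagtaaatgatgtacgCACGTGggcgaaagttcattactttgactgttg
VTC4: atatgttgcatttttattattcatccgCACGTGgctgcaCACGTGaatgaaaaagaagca
SPL2 held 3 such cores and VTC4 2, while PHM6, PHO5 and VTC1 held 1 each in this window. Also under the threshold, PHO86 (0.31 ± 0.11) held 1, and PHO81, VTC2, VTC3 and PPN1 held none. Whether the number of cores goes with the gain was not tested. A match is a description of letters and not a measured site. The 300 bases before PHO84, PHO89 and GIT1 do not hold these letters, which says nothing of the sequence further away.

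General stress genes, the targets of Msn2 and Msn4, stood above their 0 min level in the early window, nearer to it at 105 and 120 min and furthest above it, of these times, in the later window. Of 58 tested genes, 38 were called higher and none lower, with a median difference of 1.28, or 0.98 relative to all genes. After centring, 29 were called higher. Over 0 min the median of the 54 genes with a value in every library but 345 min was 3.13, 2.67 and 3.05 at 195, 210 and 225 min and 1.21, 1.62 and 1.4 at 30, 45 and 60 min, with 0.38, 0.21 and 0.91 at 105, 120 and 135 min between them.

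The 2 genes with the largest differences were stress genes. GRE1, a hydrophilin of desiccation tolerance at chrXVI:128632-129138, had 7.58, 8.2 and 8.17 log2 RPM in the later window and 4.26, 4.84 and 4.47 in the early one. The difference was 3.46 ± 0.19, an 11-fold higher share of reads (limma adjusted p = 3.18e-13). GND2, the minor isoform of 6-phosphogluconate dehydrogenase, had 8.63, 8.63 and 8.5 in the later window and 4.84, 5.47 and 5.41 in the early one, 10.2-fold higher. In the early window GRE1 was 0.47 and GND2 0.65 above 0 min, so most of their rise came after it.

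HSP26, a small heat shock protein that holds unfolded proteins, had 9.9, 10.14 and 10.43 log2 RPM in the later window and 7.04, 7.37 and 7.15 in the early one (difference 2.97 ± 0.13). SIP18, another desiccation gene, was higher by 2.99 ± 0.14 and FMP16, which encodes a mitochondrial protein, also by 2.99 ± 0.13. YBR285W, a gene with no known function, was higher by 3.27 ± 0.15. The catalase CTT1 had 7.23, 6.82 and 7.2 in the later window and 5.09, 5.5 and 5.6 in the early one, after 3.52 at 0 min, so it was raised in both.

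Some stress genes had most of their later rise over 0 min by the early window. RTC3, a protein of unclear function, had 8.38, 7.39 and 7.71 log2 RPM in the later window and 7.33, 8.15 and 7.45 in the early one, with a mean of 5.65 at 105 to 135 min and 4.82 at 0 min. The windows overlapped, and the difference was 0.18 ± 0.2 (limma adjusted p = 0.459). TMA10 differed by 0.17 ± 0.21. The small heat shock gene HSP42 (0.62 ± 0.19, limma adjusted p = 0.0105) and TSL1, a subunit of the trehalose synthase (0.68 ± 0.22, limma adjusted p = 0.0146), were higher later by less than 1. In the neighbouring libraries these last 2 were called higher, by 1.33 ± 0.3 and 1.28 ± 0.32. All 4 are among the 12 genes chosen, from those that were not called, for the largest early rise over 0 min that was kept later, so their lack of a call is part of the choice and no result. Genes with a kept early rise that were called, such as PHO84, are left out of the 12. The others are CIT2, YJL144W, PYC1, YLR149C, ALD4, ACO1, SPL2 and VTC3, and a lack of a call does not show that a gene's levels were equal.

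CIT2 and PYC1 show this pattern in carbon metabolism. CIT2, the peroxisomal citrate synthase, had 7.86, 7.69 and 7.67 log2 RPM in the later window and 7.37, 7.67 and 8.16 in the early one, after 5.29 at 0 min (difference 0.01 ± 0.15). PYC1, a pyruvate carboxylase, had 8.47, 8.62 and 8.74 in the later window and 8.88, 9.1 and 9.08 in the early one, after 6.95 at 0 min. The early libraries of PYC1 lay above the later ones, by a difference of -0.41 ± 0.11 that was under the threshold. ACO1, aconitase, had 9.2, 9.31 and 9.36 in the later window and 8.24, 9.07 and 10.09 in the early one, so it changed far more within the early window than between the windows.

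**Figure D3:**
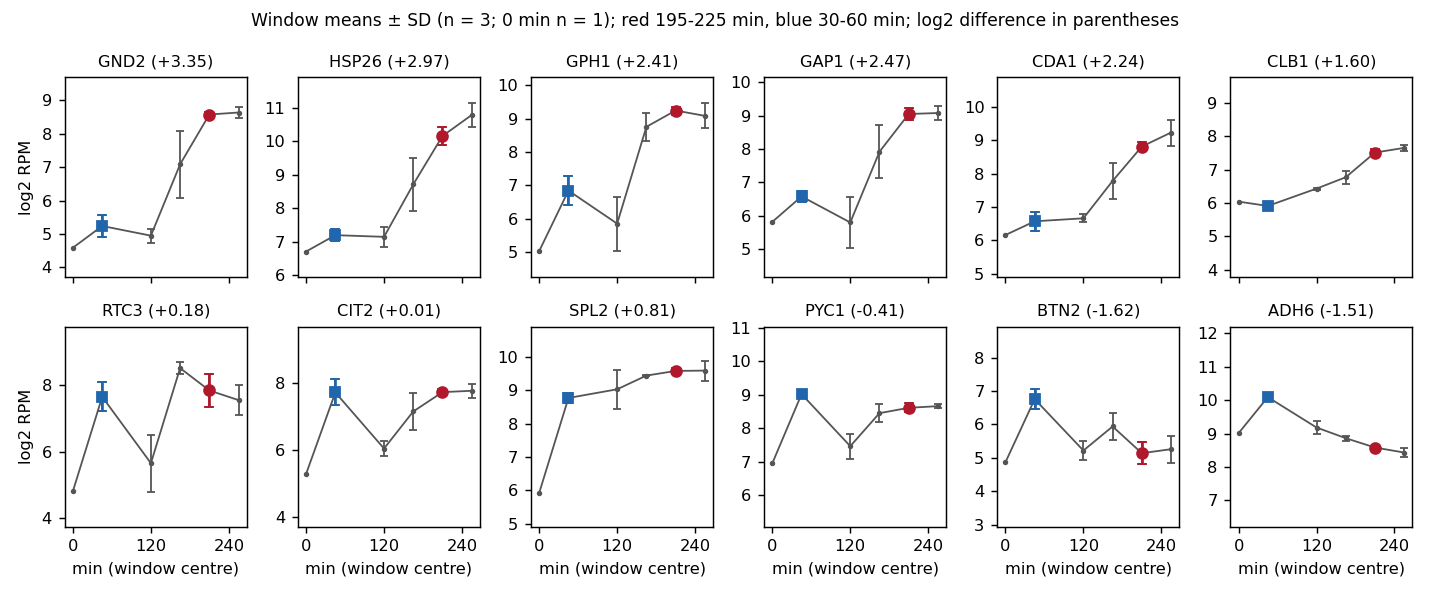
Mean log2 RPM ± SD of 12 genes in 6 windows against the window's centre in min, with n = 3 libraries per window and n = 1 at 0 min; the later window is a red circle and the early one a blue square, and every panel spans 6 log2 units. The upper genes gained at least 1.6 between the windows, and the lower ones ranged from 0.81 (SPL2) to -1.62 (BTN2).

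The plot of 12 gene courses shows examples of both kinds, chosen by their gain or lack of a call, so the contrast between the rows comes from the choice. In the upper row GND2 and HSP26 averaged 4.95 and 7.14 log2 RPM at 105 to 135 min, against 4.59 and 6.7 at 0 min. HSP26 was at 7.93 and 7.64 at 75 and 90 min, which the plot leaves out. In the lower row RTC3 and CIT2 show a rise, a drop at 105 to 135 min and another rise to about the early height.

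The stress response element AGGGG, or CCCCT on the other strand, was found in the 300 bases before 45 of the 58 stress genes (77.6%) and before 156 of the 369 genes called higher that had such a stretch (42.3%), against 22.8% of all tested genes. The stress list was drawn as targets of Msn2 and Msn4, so its share is a description only. The element lay before some genes called higher in the later window and before some that were not called. The 300 bases before GRE1, SIP18 and HSP26 do not hold it, which says nothing of the sequence further away. FMP16 at chrIV:588549-588608 (minus strand), YBR285W at chrII:773624-773683 (plus) and PAI3 at chrXIII:610606-610665 (minus) are shown as genes called higher. RTC3 at chrVIII:280592-280651 (plus) and TSL1 at chrXIII:70417-70476 (plus) are shown as genes that were not called, TSL1 by the size of its difference only. Capitals mark the element on either strand.
FMP16: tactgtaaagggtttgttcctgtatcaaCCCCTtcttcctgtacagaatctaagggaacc
YBR285W: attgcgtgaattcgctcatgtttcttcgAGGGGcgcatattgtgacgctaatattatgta
PAI3: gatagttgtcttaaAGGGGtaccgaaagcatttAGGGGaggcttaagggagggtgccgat
RTC3: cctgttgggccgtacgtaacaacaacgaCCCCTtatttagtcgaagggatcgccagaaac
TSL1: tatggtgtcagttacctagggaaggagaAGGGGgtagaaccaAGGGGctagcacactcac

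Genes of carbohydrate stores were partly higher in the later window. Of 21 trehalose and glycogen genes, 8 were called higher and none lower, with a median of 0.81, or 0.5 relative. GPH1, the glycogen phosphorylase, had 9.34, 9.11 and 9.28 log2 RPM in the later window and 6.34, 7.17 and 7.0 in the early one (difference 2.41 ± 0.15). The later libraries were level, and the early ones were already above the 5.03 of 0 min. The glycogen branching enzyme GLC3 was higher by 2.06 ± 0.17, phosphoglucomutase PGM2 by 1.82 ± 0.18 and PIG2, a presumed regulatory subunit of protein phosphatase 1, by 1.55 ± 0.2.

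In glycolysis and fermentation 7 of 26 genes were called higher and none lower, 4 of them after centring. The pyruvate kinase isoform PYK2 was higher by 1.48 ± 0.15 and GPM2, a homologue of phosphoglycerate mutase, by 2.23 ± 0.15. TDH1 (2.65 ± 0.11) and ENO1 (2.18 ± 0.1) share reads with close copies and are uncertain. Of 13 genes of the pentose phosphate pathway 4 were called higher, GND2, SOL4, TKL2 and NQM1, and 1 lower, against 3 higher and 2 lower after centring. The call of NQM1, a transaldolase (1.07 ± 0.31), was lost in 10 of 18 alternatives, among them centring and leaving out the library at 30, 195 or 210 min. RKI1, ribose-5-phosphate isomerase, had 4.72, 5.71 and 5.08 in the later window and 7.13, 6.38 and 6.76 in the early one, a difference of -1.59 ± 0.22. The list's median was -0.17, and 8 of the 13 genes were not called.

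The list of hexose transporters and sensors had 3 of 13 genes called higher, 1 of them after centring. HXT5, a transporter of slow-growing cells with fractional reads in some values, had 5.69, 5.53 and 5.65 log2 RPM in the later window and 2.77, 3.14 and 2.96 in the early one, a 6.34-fold higher share. SNF3, a glucose sensor, differed by 1.02 ± 0.36 with values in only 2 libraries of each window, and its call was lost after centring. MIG2, a glucose-dependent repressor, had 6.04, 6.11 and 6.15 in the later window and 4.77, 5.31 and 5.0 in the early one, against 5.86 at 0 min. Its early window was below its 0 min level, and centring, or leaving out the 30 min library, ended the call.

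Respiratory genes were higher by small steps. Of 37 respiratory chain and ATP synthase genes, 8 were called higher and none lower, 3 of them after centring, with a median difference of 0.79. Of these genes, 12 were at least 1 over 0 min in the later window and under 0.5 over it in the early one. INH1 and STF1, inhibitors of the ATP synthase, were higher by 1.54 ± 0.14 and 1.51 ± 0.13, although INH1 had fractional reads in part of its values. In the citrate cycle and gluconeogenesis 6 of 32 genes were called higher, among them the succinate dehydrogenase subunits SDH1 (1.48 ± 0.3) and SDH2 (1.44 ± 0.28), both at low levels. CAT8, the activator of gluconeogenic genes, was listed at 195 and 210 min with 4.26 and 3.68 and at 45 and 60 min with 2.6 and 2.13, close to the lowest level that these libraries list.

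Among 32 antioxidant genes 8 were called higher and none lower, but the list's median of 0.29 was close to that of all genes (-0.02 relative). GRX1, a glutaredoxin, had 10.68, 10.63 and 10.73 log2 RPM in the later window and 8.8, 9.07 and 9.28 in the early one. The glutathione transferase GTT1 (1.65 ± 0.17) and the mitochondrial peroxiredoxin PRX1 (1.56 ± 0.14) were higher too. The other 24 genes of the list were not called.

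Genes for the use of poor nitrogen sources were raised mainly in the later window. Of 32 nitrogen catabolite genes 13 were called higher and 1 lower, with a median of 0.81, or 0.51 relative, and after centring 10 were called higher and 2 lower. Over 0 min the median was 1.37 in the later window and 0.38 in the early one. Of these genes 7 were at least 1 over 0 min in the later window and under 0.5 in the early one, and 3 were at least 1 over in both. The difference between the windows is what was tested, and the medians over 0 min share 1 library.

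GAP1, the general amino acid permease at chrXI:515063-516871, had 8.86, 9.07 and 9.23 log2 RPM in the later window and 6.39, 6.64 and 6.71 in the early one, with 5.82 at 0 min. The later libraries were all more than 2 above the highest early one, and the difference was 2.47 ± 0.13 (limma adjusted p = 1.55e-13). DAL80, a GATA repressor that is itself a target of nitrogen control, had 6.09, 5.85 and 6.13 in the later window and 3.15, 3.47 and 4.07 in the early one. MEP2, the high-affinity ammonium transporter, had 5.58, 6.0 and 5.25 in the later window and 3.39 and 3.24 at 45 and 60 min, and DAL3, of allantoin breakdown, was higher by 2.03 ± 0.21.

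The 1 gene called lower was arginase, CAR1, with 6.32, 6.0 and 6.05 log2 RPM in the later window and 7.73, 7.31 and 6.53 in the early one (difference -1.07 ± 0.21). Its early libraries fell toward the later level within the early window. The call was lost without the 30 min library and on the log2(RPM + 10) scale, and in the neighbouring libraries CAR1 differed by -0.2 ± 0.3 (limma adjusted p = 0.661). The activator GLN3 (0.06 ± 0.24) was not called, and GAT1, another activator, had a difference of 0.94 ± 0.19 and fractional reads in many values.

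The GATA site GATAAG, or CTTATC on the other strand, was found before 19 of 32 nitrogen catabolite genes (59.4%). It was found before 14.5% of all tested genes and 20.6% of the genes called higher. The list gathers genes of nitrogen control, so its share is a description only. GAP1 at chrXI:514794-514853 (plus strand), DAL80 at chrXI:506598-506657 (plus) and DAL3 at chrIX:415716-415775 (minus) are shown because they gained most among the genes of the list with several such sites. Capitals mark the site, and at the first bases of the DAL3 stretch they mark the end of another copy.
GAP1: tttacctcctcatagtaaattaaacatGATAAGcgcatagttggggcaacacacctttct
DAL80: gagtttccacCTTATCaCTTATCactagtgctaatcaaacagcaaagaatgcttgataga
DAL3: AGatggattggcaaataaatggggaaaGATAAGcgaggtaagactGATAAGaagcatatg

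Genes of vacuolar breakdown were partly higher. Of 24 autophagy genes 8 were called higher and none lower, 2 of them after centring, and of 11 vacuolar proteases and inhibitors 4 were called higher, 3 of them after centring. ATG22, a vacuolar exporter of amino acids, had 7.85, 8.16 and 8.14 log2 RPM in the later window and 6.09, 6.18 and 6.55 in the early one (difference 1.78 ± 0.14). PRB1, vacuolar proteinase B, had 7.72, 7.7 and 7.71 in the later window and 6.24, 6.49 and 6.38 in the early one. PAI3, the inhibitor of vacuolar proteinase A, gained most in the list, with 8.98, 8.9 and 8.84 in the later window and 6.12, 6.38 and 6.27 in the early one. Proteinase A itself, PEP4, differed by 0.88 ± 0.11 and was not called.

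Heat shock chaperones had calls in both directions. Of 29 tested genes 3 were called higher (10.3%, against 7.54% of all tested genes) and 4 lower (13.8%, against 3.43%). The list's median was -0.33, or -0.64 relative, and after centring 2 were called higher and 6 lower. In the neighbouring libraries the balance was the opposite, with 7 of 29 called higher and 2 lower and a median of 0.09, against 0.36 for all genes there. Their median over 0 min was 0.47 in the later window and 0.67 in the early one. Besides HSP26, the higher calls were SSE2, an Hsp110 (1.39 ± 0.15), and the disaggregase HSP104 (1.01 ± 0.12), which was named after its value had been seen.

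BTN2, a protein that gathers misfolded proteins into deposits, at chrVII:772454-773686, had 4.84, 5.49 and 5.08 log2 RPM in the later window and 7.03, 6.82 and 6.44 in the early one, against 4.87 at 0 min. The gene was up early and back at its start later (difference -1.62 ± 0.2, limma adjusted p = 3.37e-07). Its homologue CUR1 had 5.11, 5.44 and 5.15 in the later window and 6.29, 6.34 and 6.06 in the early one, against 5.21 at 0 min, and missed the threshold by size at -1.0 ± 0.18. SSB1 (-1.84 ± 0.12) and SSB2 (-1.3 ± 0.1), chaperones that work on the ribosome, and SSA2 (-1.29 ± 0.11) were called lower, but each shares reads with close copies. The heat shock element TTCNNGAA, the same on both strands, was found before 21 of the 29 chaperone genes (72.4%). It was found before 13.1% of all tested genes and 12.2% of those called higher. The share of the list, which was drawn as heat shock genes, is a description only.

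On the deposited scale, genes up only in the early window were few. With the 0 min library as the base, 6 of 5182 genes (0.116%) were at least 1 over it in the early window and under 0.5 over it in the later one, against 345 (6.66%) with the reverse pattern and 238 (4.59%) at least 1 over it in both. The 6 were BTN2, CUR1, the mitochondrial chaperone MDJ1 (with fractional reads), the aldehyde dehydrogenase ALD6, YLR042C and ADH6. Apart from BTN2 they are named because they were so few, after their values had been seen, and 3 of the 6 are in the chaperone list. The 0 min library is single and enters both differences, so these counts carry no test. The median of all genes was itself 0.45 over 0 min in the later window and 0.13 in the early one. The limit of 0.5 therefore lies close to the later median, and the counts depend on the scale.

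ADH6, an NADPH-dependent alcohol dehydrogenase, had 8.58, 8.57 and 8.59 log2 RPM in the later window and 10.12, 10.07 and 10.08 in the early one, against 9.01 at 0 min. The SD was 0.01 in the later and 0.03 in the early window, and the difference was -1.51 ± 0.1 (limma adjusted p = 6.29e-12). BTN2 and ADH6 were the only 2 of the 6 called lower. The opposite course, at least 1 below 0 min early and less than 0.5 below it later, was shown by 3 genes, of which OLE1, the fatty acid desaturase, and YLR154C-H were called higher.

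Genes listed in one window alone could not be tested: 4 (POT1, LEE1, YLR154W-E and YDR119W-A) had a value in all 3 later libraries and no early one, and 26 the other way round, where the later libraries also list less of the low range. POT1, the thiolase of fatty acid oxidation, had 3.58, 4.06 and 3.78 log2 RPM in the later window and was listed neither in the early one nor at 0 min.

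Of the 345 genes raised over 0 min in the later window alone, 137 were called higher against the early window. CDA1, a chitin deacetylase of the spore wall, had 8.72, 8.74 and 8.97 log2 RPM in the later window and 6.26, 6.78 and 6.69 in the early one, against 6.16 at 0 min. YHR033W, of unknown function, was higher by 2.29 ± 0.16 and REG2, a regulatory subunit of protein phosphatase 1, by 1.7 ± 0.24. Of the 238 raised in both, 100 were called higher. Over the 387 genes called higher with a value at 0 min, the median was 1.96 over it in the later window and 0.57 in the early one, and 163 of them were within 0.5 of 0 min in the early window.

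On the deposited scale, ribosomal protein genes made up most of the genes called lower. After centring, 80 of the large subunit and 56 of the small subunit were called lower, among 266 lower calls over all genes. For the large subunit 80 of 82 genes were called lower, with a median of -1.94 (-2.24 relative), and for the small subunit 55 of 56, with a median of -1.97 (-2.28 relative). The small-subunit list includes ASC1, a protein bound to that subunit. Over 0 min these medians were -2.37 and -2.42 in the later window and -0.45 and -0.42 in the early one. RPL5, which carries the 5S ribosomal RNA into the large subunit, at chrXVI:303121-304014, had 8.55, 8.53 and 8.5 log2 RPM in the later window and 10.97, 10.84 and 10.67 in the early one. It had 11.29 at 0 min, so the early libraries had fallen little, and the difference was -2.31 ± 0.1 (limma adjusted p = 3.24e-14).

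RPP0, the base of the ribosomal stalk, had 9.6, 9.44 and 9.12 log2 RPM in the later window and 11.65, 11.53 and 11.28 in the early one. RPS3 had 9.43, 9.29 and 9.05 in the later window and 11.37, 11.31 and 11.08 in the early one, and RPS15 differed by -2.16 ± 0.12. In RPP0 and RPS3 the level went down with time inside both windows. Of the genes in the lists, 67 of the large subunit and 49 of the small subunit had fractional reads in more than 5% of their values, and most of them belong to pairs of near-identical copies. Without all genes of that kind, 52 genes were called lower, a count that leaves out most members of both lists.

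The exceptions were named after their values had been seen. RPL15B had 7.22, 7.42 and 7.07 log2 RPM in the later window and 7.23, 7.36 and 7.4 in the early one, a difference of -0.09 ± 0.13, with reads shared with its copy. RPP1 entered the list by its name and encodes a subunit of RNase P, with a difference of -0.26 ± 0.2. In the small subunit RPS30A differed by -0.89 ± 0.12 and was called lower after centring. Mitochondrial ribosomal proteins had none of 71 genes called.

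Ribosome assembly followed another course. Of 99 ribosome biogenesis genes 7 were called lower and none higher, with a median of -0.52 (-0.82 relative), and after centring 28 were called lower. Their median over 0 min was -1.59, -1.13 and -1.46 at 195, 210 and 225 min and -0.81, -1.01 and -0.65 at 30, 45 and 60 min, so they were already low in the early window. At 105, 120 and 135 min it was -0.14, 0.05 and -0.56. NOP1, the methyltransferase of small nucleolar RNPs, had 6.81, 7.2 and 6.97 log2 RPM in the later window and 8.14, 7.91 and 8.24 in the early one, against 8.93 at 0 min. SRP40, a nucleolar chaperone, differed by -1.23 ± 0.19.

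The PAC motif GATGAG, or CTCATC on the other strand, was found in the 300 bases before 88 of 99 biogenesis genes (88.9%). It was found before 20 of the 42 genes with a stretch that were called lower and are not ribosomal proteins (47.6%). Of all tested genes 18.8% had it, and these shares are a description only. Of 32 genes of RNA polymerases I and III, 2 were called lower, the polymerase I subunits RPA135 (-1.23 ± 0.17) and RPA49 (-1.08 ± 0.16), the call of RPA49 being lost without the 60 min library. The 1 called higher was MAF1, the repressor of polymerase III, with 6.65, 7.2 and 7.08 log2 RPM in the later window and 5.2, 5.7 and 5.5 in the early one (difference 1.51 ± 0.18). Among 45 translation factors and tRNA synthetases 3 were called lower, EFT2, TEF2 and DED81, the first pair with reads shared between copies, and TEF2 lost its call without the 225 min library.

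**Figure D4:**
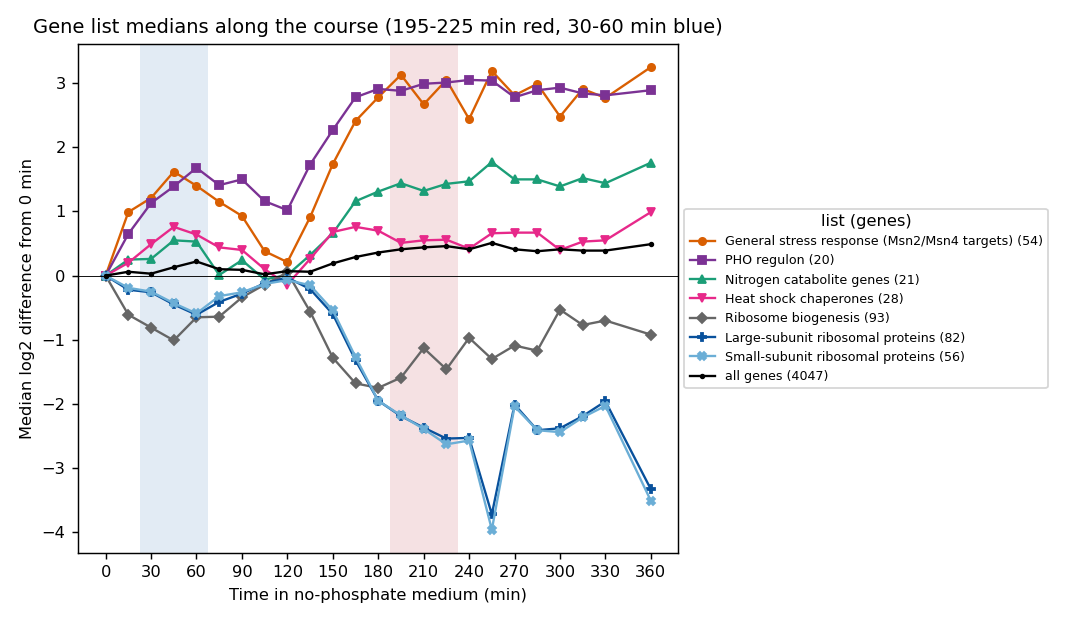
Median log2 difference from the 0 min library of 7 gene lists and of all genes listed throughout, against time in no-phosphate medium in min, without the shallow 345 min library; red shading marks 195 to 225 min and blue shading 30 to 60 min. Stress genes and ribosome biogenesis return near 0 at 120 min, and ribosomal proteins fall below -2 at 195 min.

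The plot of list medians along the course shows what separates the windows. Stress and biogenesis genes had an early excursion that ended by 120 min, PHO genes stayed at 1.02 or more from 30 min on, and ribosomal protein genes had a shallow early dip and a deep later fall. For each called gene the first sample was sought from which every sample through 225 min lay beyond all 3 early libraries. Of 276 genes called higher and listed throughout, 25.7% had passed by 135 min, 80.8% by 150 min and 96.0% by 165 min. Of the 178 genes called lower, 6.7% had passed by 135 min, 55.6% by 150 min and 99.4% by 165 min. Both sets were called from the same early and later libraries, so passing by the later window is largely set by the call. No such share is given for all tested genes. The percentages therefore describe only when the called genes passed, and are no test of the change.

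Smaller groups gave few calls in either direction. For purine and pyrimidine synthesis 4 of 33 genes were higher and 2 lower, with a median of 0.06 (-0.25 relative). ADE17, of purine synthesis, had 9.09, 9.24 and 9.22 log2 RPM in the later window and 6.95, 7.34 and 8.07 in the early one, while URA1, of pyrimidine synthesis, had 7.85, 8.2 and 7.98 in the later window and 9.63, 9.3 and 9.11 in the early one. RNR4, a small subunit of ribonucleotide reductase, was higher by 1.06 ± 0.12, a call lost after centring and without the library at 60 or 225 min. Of 61 amino acid biosynthesis genes 2 were higher and 1 lower, with a median of 0.03 (-0.27 relative).

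In the cell cycle lists the calls were single genes. CLB1, a mitotic cyclin, had 7.4, 7.57 and 7.57 log2 RPM in the later window and 6.03, 5.8 and 5.89 in the early one, against 6.04 at 0 min (difference 1.6 ± 0.14). CLB2 was higher by 1.32 ± 0.39 at levels near the lowest listed, a call lost after centring and without the 60 min library, and the G1/S list had none of 29 genes called. RME1, a regulator of G1 and meiosis, was higher by 1.36 ± 0.19, 1 of 2 calls among 29 genes of the M/G1 list, while in the neighbouring libraries 10 of the 29 were called higher. The 20 mating-type a and pheromone genes had no call and a median of 0.14 (-0.17 relative).

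Cell wall and membrane groups had few calls between the windows. Of 34 cell wall genes 5 were called higher, against 11 of 33 in the neighbouring libraries. The glucanase EXG1 was higher by 1.48 ± 0.11, and HPF1 (2.87 ± 0.12) shares its reads with a copy. Ergosterol synthesis had 3 of 26 genes higher, the zinc and iron regulons 1 each of 19 and 24, and phospholipid genes 1 higher and 1 lower of 30. Shares near the 7.54% of all genes are no result about these lists.

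In the contrast of the neighbouring libraries, those at 75 and 255 min were low in ADA2. Without these 2, 464 genes were higher and 178 lower. Of the 336 genes called higher in the later window and tested in both, 245 were called higher beside it, which is 72.9% of the window's calls and 45.3% of the neighbours' calls, and 333 had the same sign. Of the 178 called lower, 165 were called again, 92.7% and 87.3% of the 2 sets, and all 178 had the same sign. Over all 4973 genes tested beside the windows, 10.9% were called higher and 3.8% lower. No share with the same sign is given for all genes, whose median difference was above 0 in both contrasts (0.3 and 0.36). The neighbouring libraries are samples of the same course, so the overlap is no replication. Without the 75 and 255 min libraries the shares of the window's calls were 79.9% for higher and 90.4% for lower.

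**Figure D5:**
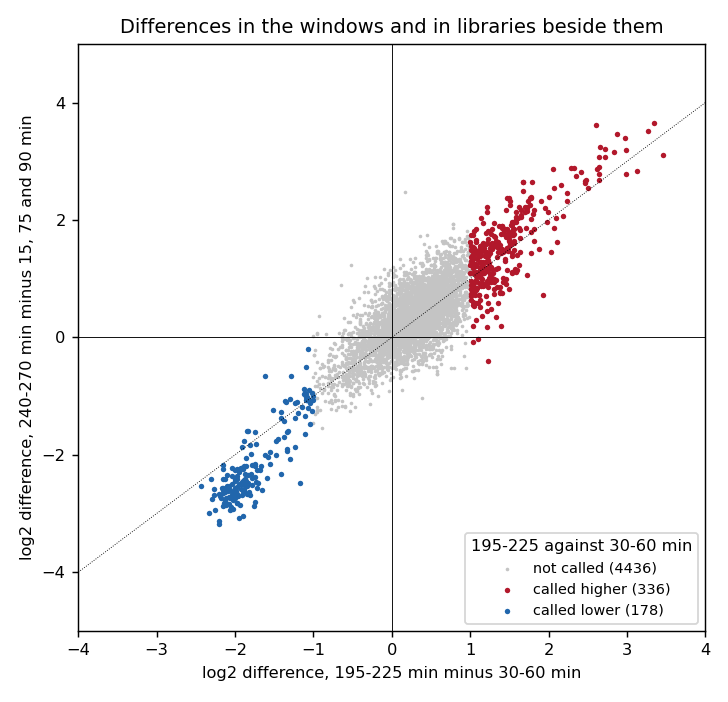
Log2 differences of 4950 genes in the later against the early window (horizontal axis) and in 240 to 270 min against 15, 75 and 90 min (vertical axis); red and blue points are genes called higher (336) and lower (178) in the windows, and the dotted line marks equal differences. All blue points and 333 red points have the same sign on both axes.

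The plot against the neighbouring libraries shows the called genes strung along the line of equal differences. GND2 differed by 3.66 ± 0.22 there (3.63 ± 0.24 without the 2 libraries) and GAP1 by 2.63 ± 0.21 (2.56 ± 0.21). RPL5 differed by -2.41 ± 0.35 (-2.09 ± 0.23) and ADH6 by -1.23 ± 0.21 (-1.17 ± 0.22). BTN2 was not called, with a difference of -0.66 ± 0.4 (-0.61 ± 0.38). Its levels were 5.29, 4.84 and 5.65 log2 RPM at 240, 255 and 270 min against 6.88, 5.61 and 5.28 at 15, 75 and 90 min, so of the earlier libraries 15 min was high. CIT2, not called between the windows, was higher by 1.03 ± 0.22 (1.14 ± 0.22), with 7.86, 7.93 and 7.54 log2 RPM at 240, 255 and 270 min against 6.49, 7.11 and 6.63 at 15, 75 and 90 min.

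Most called genes stayed beyond the early libraries. Of 304 genes called higher and listed at 240, 255 and 270 min, 288 (94.7%) lay above all 3 early libraries in each of these samples, against 39.9% of all 4369 tested genes listed there. Of 176 called lower, 170 (96.6%) lay below all early libraries, against 9.52% of all. From 285 to 360 min, without the 345 min library, the shares were 93.5% of 308 genes and 93.7% of 175, against 33.4% and 8.02% of all. The calls were made against the same early libraries, so the gap to all genes is partly set by the call. These shares are a description and no test. Some list medians went back, though not in every sample. Ribosome biogenesis was at -1.17, -0.53, -0.77, -0.7 and -0.92 over 0 min at 285, 300, 315, 330 and 360 min. It was below its range in the early window at 285 min and within or above that range afterwards. RNA polymerase I and III genes were at -0.67, -0.33, -0.29, -0.33 and -0.4 at these times, against -0.93, -0.54 and -0.63 at 195, 210 and 225 min. The G1/S list was at 0.5, 0.35, 0.36, 0.26 and -0.13, against 0.49, 0.66 and 0.76.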

How the data were processed

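Per the submitters' processing notes, Bowtie aligned the reads to build R64; the sources used here do not give settings, counter, annotation or strand use. As deposited by the authors, the table holds log2 values, 1 column for each of the 25 samples. On the linear scale every column adds up to 1000000, and the values were therefore taken as log2 RPM, although the series' design text describes values set against the first time point. Low values are multiples of 1 read and the lowest equals 10 reads, which gave each library's depth; a missing value stands for fewer than 10 reads. Of values under 200 reads, 94.9 to 97.5% per library came within 0.02 of a whole number. Genes with under 95% whole values (539 of those tested) are named as having fractional or shared reads. Intervals from read numbers would cover counting error only, and none is given.

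Rows without a name (51, with 0% of the reads) and 2 that share a name were left out. Of 6648 names, 5915 matched the RefSeq annotation of R64 directly and 48 as a synonym, and coordinates are counted from 1.

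Groups were the libraries at 195, 210 and 225 min and at 30, 45 and 60 min. The log2 values as deposited were fitted with limma 3.58.1 (R 4.3.3) with a mean-variance trend, over these 6 libraries, without a pseudocount or covariates. Total degrees of freedom after moderation, residual plus those borrowed across genes, had a median of 23.4. The standard errors of the differences had a median of 0.179. P-values are two-sided and adjusted after Benjamini-Hochberg over all 5188 genes. The fit was tested on simulated data with independent values for each library. That test does not cover dependence between consecutive samples or change inside a window. Levels over 0 min, gene lists and motif counts are described without a test, since 0 min is 1 library.

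The genes, windows and gene lists were chosen with earlier results of these data known. Named genes are the 12 largest rises and falls among called genes listed in all 25 libraries with at least 95% whole values, every PHO gene, up to 4 called genes of each other list in its main direction and up to 2 in the other, the 12 called genes highest over 0 min among those raised in the later window only and, among genes that were not called, the 12 with the highest early rise over 0 min kept later; systematic names passed this rule too. Genes outside the rule are listed in the text as part of a small group or after their values had been seen. Alternatives covered filters, pseudocounts, scaling, weights, the libraries in the fit and each library left out.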

Additional observations from a re-analysis of the deposited data

Results flagged for a closer look

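VTC4, the gene that carries the DAmP allele, stood at 10.36 log2 RPM at 345 min, while the other 5 libraries from 285 to 360 min lay between 7.51 and 8.06. The gap was large enough to stand out by Dixon's test, which chance does in about 1 group in 20. The library at 345 min is the shallowest of the course with 0.147 M reads, is low in ADA2 and belongs to neither window. Its part in the value was not tested.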

How the results depend on the processing

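Scaling moved the count of higher genes most, and leaving out genes under 95% whole values that of lower genes. Against 391 genes higher and 178 lower on the deposited scale, centring each library on its median gave 191 and 266, quantile normalization 193 and 287, and RPM without ribosomal protein reads 177 and 279. A pseudocount of 10 RPM gave 216 higher, and leaving out genes under 95% whole values gave 52 lower. Beside the windows, where 541 were higher and 189 lower, centring gave 238 and 286, quantile normalization 247 and 284, and RPM without ribosomal protein reads 205 and 310. Leaving out 1 library at a time gave 336 to 417 higher and 174 to 192 lower in the windows, and 448 to 535 and 161 to 207 beside them. Of 135 called named genes, centring ended 30 calls and turned none round, and the fit over all 25 libraries ended 3. Leaving out the 75 and 255 min libraries was chosen after seeing the data. No paired analysis was possible because the columns carry times and no replicate numbers. Shallower later libraries limit what can be said of genes near 10 reads.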
